A study of Homo sapiens with 4 samples.

Results

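The response of PLC cells to glucose was read from 1 RNA-seq library at 5 mM glucose and 1 at 25 mM glucose, each prepared after 48 h. PLC (PLC/PRF/5) is a human hepatocellular carcinoma (HCC) line. Members were the protein-coding genes with at least 20 reads in both PLC libraries, which left 11937 of the 19921 protein-coding genes of the table. The others were 763 genes that reached 20 reads at 5 mM alone, 148 that reached it at 25 mM alone, and 7073 below it in both libraries. The study sequenced HCC cells in low and high glucose to look for glucose-related transcripts, and its other 2 libraries come from the HCC line Huh7 under the same conditions. Both lines carry the label WT for genotype. All 4 cultures received glucose-free DMEM with fetal bovine serum, to which glucose was added at 5 mM (low glucose) or 25 mM (high glucose). High-glucose medium was also the routine medium of the lines. The models are bulk cultures of established tumour lines.

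Hepatocytes and liver tumour cells take up glucose through membrane carriers and trap it as glucose 6-phosphate, from which glycolysis, glycogen, the pentose phosphate pathway, the hexosamine pathway and lipid synthesis all branch. Glucose supply is also read by transcription factors. ChREBP (MLXIPL) drives glycolytic and lipogenic genes when sugar phosphates are plentiful, and ATF4 drives amino acid uptake, amino acid synthesis and stress genes when nutrients run short. Proliferating cells additionally draw on glucose carbon for nucleotides and membranes, and their S-phase and mitotic transcripts follow the share of cycling cells.

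There was 1 library per condition and no replicate, so no spread between cultures could be measured and no test of a glucose effect was possible. A ratio is the share of reads of a gene at 25 mM divided by its share at 5 mM. Its 95% interval is the exact binomial (Clopper-Pearson) interval of the reads. Intervals cover counting error only and take reads as independent. PCR reads without molecular identifiers are not independent molecules, so the intervals may be too narrow even for counting error. Genes with a ratio over 1.5 or under 0.67 are called higher or lower here, and these words describe the pair of libraries. In bulk RNA, fewer cells expressing a gene and less of its RNA per cell cannot be told apart.

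The 5 mM PLC library held 30279716 counted reads and the 25 mM library 16049686, so 20 reads stood for 0.661 and 1.25 CPM (counts scaled to the library total). Protein-coding genes took 90.2% and 89.8% of the reads, and the single gene with most reads took 3.71% and 3.94%. The deeper library was the 5 mM one, so depth and glucose cannot be told apart for genes near the minimum. Liver epithelial markers were present in both libraries. Of 9 listed markers, 8 were members, among them the structural lipoprotein APOB with 98682 and 54882 reads, albumin (ALB) with 5449 and 3980, and the keratin KRT18 with 21291 and 12209, but the thyroxine carrier TTR had 4 and 0 reads. Of 12 markers of blood, vessel and stroma, 3 were members (LYZ, PECAM1 and COL3A1), with a summed level of 4.33 FPKM at 5 mM and 12.4 FPKM at 25 mM (reads scaled to gene length and library total). The defining leukocyte gene PTPRC had 5 and 0 reads and the globin HBB had none. The part of such transcripts in the results was not tested.

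Of the 11937 members, 2318 (19.4%) had a ratio over 1.5 and 1302 (10.9%) a ratio under 0.67. The remaining 8317 lay between. The median ratio was 1.06, or 0.08 on the log2 scale, and the middle 50% of the members ran from -0.27 to 0.45 log2. With TMM scaling every log2 ratio was lower by 0.12, and the split became 1827 higher (15.3%) and 1820 lower (15.2%). At stricter limits 1017 members were over 2 and 445 under 0.5, and 129 were over 4 and 42 under 0.25. The interval lay above 1 for 4989 members and below 1 for 3772. Counting error, with reads taken as independent, was thus small beside many of the modest ratios. Its median half-width was 0.15 log2.

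The ratio varied with the kind of gene as well as with its function. The median log2 ratio was 0.27 in the fifth of members with the lowest mean level and -0.04 in the fifth with the highest. It was 0.20 in the fifth with the shortest gene length and 0.01 in the longest, and 0.04 in the fifth with the lowest GC content and 0.21 in the highest. The read minimum stood for 0.661 CPM at 5 mM and 1.25 CPM at 25 mM. It was reached by 763 genes at 5 mM alone and by 148 at 25 mM alone. The part of this filter in the trend with level was not tested. With the length trend removed, log2 ratios of the 30 leading genes changed by -0.19 to 0.10, and with the GC trend removed by -0.15 to 0.08. For the trend with level, and for the other single genes, the part of the trends in the ratios was not tested. Medians of single chromosomes ran from -0.04 on chromosome 10 to 0.17 on chromosome 17.

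Of 54 gene lists examined, 10 had a median ratio over 1.5 and 6 a median under 0.67. The 10 with a higher median were replication-dependent histones, mitosis, DNA replication, gluconeogenesis, apolipoproteins, plasma proteins, chemokines with NF-kB feedback genes, cholesterol synthesis, polyol and fructose metabolism, and carbohydrate-response genes. The 6 with a lower median were ATF4 targets, stress-induced secreted factors, amino acid transporters, NRF2 targets, serine and one-carbon synthesis, and aminoacyl-tRNA synthetases. Of these 16 lists, 6 had a median within the limits under at least 1 alternative setting (carbohydrate-response, polyol and fructose, gluconeogenesis, plasma proteins, chemokines and aminoacyl-tRNA synthetases). Direction is given for no list with a log2 median between -0.12 and 0.12, since such a median is no larger than the TMM shift. That shift lowers all ratios, so it can turn the sign of a positive median but not of a negative one. Ribosomal proteins (80 members, median 0.05), proteasome subunits (35 members, 0.00) and TCA cycle enzymes (16 members, -0.03) were in that range. Counts of higher and lower genes in any list below stand beside 19.4% higher and 10.9% lower of all members. With TMM those shares were 15.3% and 15.2%.

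The 15 genes with the highest lower bound were 13 histone genes, ADH1C and LRG1. ADH1C, a class I alcohol dehydrogenase of the liver, had 36 reads at 5 mM and 382 at 25 mM, a ratio of 20 (14.2 to 29). LRG1, a secreted leucine-rich glycoprotein of the acute phase, had 138 and 1100 reads, a ratio of 15 (12.6 to 18.1). The linker histone H1-5 had the highest level among the 15, with 52.4 FPKM at 5 mM and 663 FPKM at 25 mM, a ratio of 12.7 (11.9 to 13.4). ADH1C had no read in either Huh7 library.

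The 15 genes with the lowest upper bound were led by ATF3, a stress-induced bZIP repressor, with 4926 reads at 5 mM and 197 at 25 mM, a ratio of 0.0754 (0.0651 to 0.0870). ANKRD1, an ankyrin-repeat protein and YAP target, had 2088 and 106 reads, a ratio of 0.0958 (0.0780 to 0.116). INHBE, the inhibin beta E subunit that forms the hepatokine activin E, had 11820 and 760 reads, a ratio of 0.121 (0.113 to 0.131). The calcium-binding protein S100P had 2168 and 128 reads, and CHAC1, which degrades glutathione, had 3134 and 196. Others among the 15 were BEX2, RAB39B, TES, MAP1B, CCN1, STC2, SH3BP2, HRK and RASSF5, with ratios from 0.109 to 0.184. All 15 had at least 37 reads in the 25 mM library and a 5 mM level above 1.5 FPKM.

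**Figure D1:**
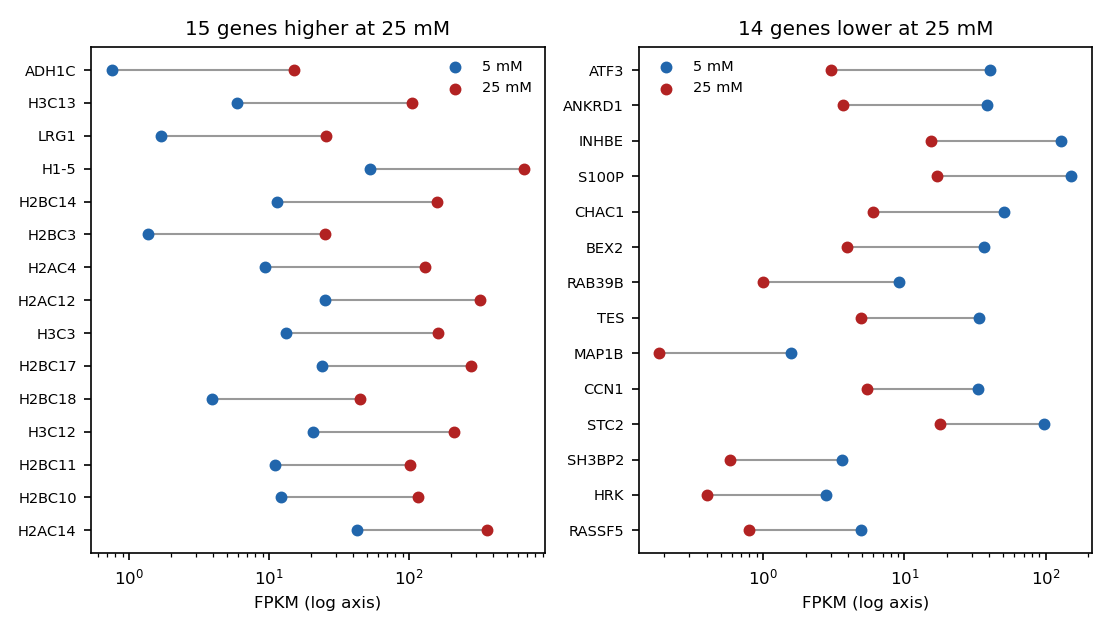
FPKM (horizontal log axis) at 5 mM (blue) and 25 mM glucose (red) in PLC cells for the 15 genes with the highest lower interval bound (left) and for 14 of the 15 with the lowest upper bound (right), 1 library per point. ADH1C runs from 0.755 to 15.1 FPKM and H1-5 from 52.4 to 663, and ATF3 runs from 40.3 down to 3.04.

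Replication-dependent histone genes, which supply chromatin during S phase and whose transcripts end in a stem-loop instead of a poly(A) tail, gave the highest median of all lists. The libraries were made by rRNA depletion, which keeps such transcripts. Of the 66 histone genes, 47 were members, with 45 higher, none lower and a median log2 ratio of 2.34. Their summed level was 2190 FPKM at 5 mM and 9740 FPKM at 25 mM. H2BC3 had 20 and 197 reads (ratio 18.6, 11.7 to 31.1), just at the read minimum. H3C13 had 84 and 792 (17.8, 14.2 to 22.5) and H2BC14 had 161 and 1191 (14, 11.8 to 16.6). The lowest ratios were those of H3C6 at 1.27 and H4C11 at 1.33, and H4C5 reached 1.67. Histone copies are nearly identical in sequence, so reads may be divided among them by the counting and the values of single copies are uncertain.

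All 31 members of the mitosis list were higher, with ratios from 1.81 to 6.61 and a median log2 ratio of 1.67, against 19.4% of all members. KIF20A, the kinesin of the cleavage furrow, had 357 reads at 5 mM and 1251 at 25 mM (ratio 6.61, 5.87 to 7.46). MKI67, which coats mitotic chromosomes and is the source of the Ki-67 proliferation index, had 2322 and 7879 reads (6.40, 6.11 to 6.71). CCNB1, the cyclin that activates CDK1 at mitotic entry, had 728 and 2312 reads (5.99, 5.51 to 6.52), and CDK1 itself 1347 and 1644 (2.30, 2.14 to 2.48). The smallest ratio was that of the checkpoint target CDC20, with 1967 and 1882 reads and a ratio of 1.81.

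DNA replication genes gave the same picture. Of 36 members, 34 were higher and none lower, with a median log2 ratio of 1.44, and the remaining pair were POLD1 (1.27) and ORC6 (1.47). MCM10, which helps to activate the replicative helicase, had 398 and 1218 reads (ratio 5.77, 5.15 to 6.48), and its partner CDC45 had 115 and 320 (5.25, 4.23 to 6.55). All of the hexameric helicase subunits MCM2 to MCM7 were higher, from 1.99 for MCM3 to 4.07 for MCM5. PCNA, the sliding clamp of the polymerases, had 1114 and 2352 reads, a ratio of 3.98 (3.71 to 4.28).

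Nucleotide synthesis genes were mixed. Of 22 members, 8 were higher (36.4%, against 19.4% of all members) and 3 lower (13.6%, against 10.9%). RRM2, the regulated subunit of ribonucleotide reductase, had 584 and 1993 reads (ratio 6.44, 5.87 to 7.07), and thymidine kinase TK1 had a ratio of 2.86. PPAT, the committed step of purine synthesis, had a ratio of 0.922, GART one of 0.631 (0.608 to 0.654) and IMPDH2, which makes the guanine branch, one of 0.557 (0.536 to 0.578).

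The G1 regulators did not move as a list, with a single member higher and a single member lower of 11. The CDK4/6 inhibitor CDKN2C had 126 and 404 reads (6.05, 4.94 to 7.45), and the p53-responsive inhibitor CDKN1A had 256 and 65 (0.479, 0.359 to 0.631). CCND1 had a ratio of 1.15. CCND2 fell outside the members with 142 reads at 5 mM and 1 at 25 mM, a ratio of 0.0133 (0.000334 to 0.0752).

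E2F and NF-Y motifs were counted in RefSeq promoters, the 250 bases before and 50 after each gene start on GRCh38.p14, on both strands. The table of promoters held 27305 genes and matched 9813 of the members by symbol. TTTCCCGC stood in 1.66% of all promoters, 2.67% of those of the members and 28.1% of the 32 promoters found for replication genes, and TTTGGCGC in 0.659%, 1.11% and 25.0%. Both spell the core bound by E2F factors. CCAAT, the NF-Y box, was in 35.7% of all promoters, 37.5% of those of the members, 80.8% of 26 mitotic promoters and 85.7% of 42 histone promoters. CCAAT was not particular to these lists. It was in 59.4% of 32 replication, 83.3% of 18 cholesterol and 85.7% of 7 serine and one-carbon promoters. The serine and one-carbon list had a lower median ratio. CCAAT was in 47.1% of 17 ATF4 target, 43.8% of 16 aminoacyl-tRNA synthetase and 36.4% of 11 carbohydrate-response promoters. Of 10 amino acid transporter promoters, 2 had it. TTTCCCGC was in 3.85% of the mitotic promoters and in no histone promoter of the table. A letter match describes the sequence and shows no binding. The windows for 4 replication genes are given 5′ to 3′ on the strand of the gene, with the E2F letters or their reverse complement in capitals, since these genes carry the motif upstream of the start and had ratios between 1.99 and 3.98. They lie at chr6:52284898-52284927 (minus strand) for MCM3, chr2:135876577-135876606 (minus, the more distant of 2 matches) for MCM6, chr20:5126663-5126692 (minus) for PCNA and chr20:33686387-33686416 (minus) for E2F1.
MCM3: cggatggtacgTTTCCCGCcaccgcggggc
MCM6: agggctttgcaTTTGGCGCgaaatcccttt
PCNA: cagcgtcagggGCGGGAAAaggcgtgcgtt
E2F1: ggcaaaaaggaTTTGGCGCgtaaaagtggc

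Genes of glucose handling differed by isoform, beginning with the glucose carriers. SLC2A3 (GLUT3), a high-affinity carrier that is low in normal liver, had 14848 reads at 5 mM and 1629 at 25 mM, a ratio of 0.207 (0.197 to 0.218). SLC2A1 (GLUT1) had 1586 and 535 reads (0.636, 0.576 to 0.702), and SLC2A2 (GLUT2), the low-affinity carrier of hepatocytes, had 2554 and 2263 (1.67, 1.58 to 1.77). SLC2A3 went from 80.8 to 16.7 FPKM and SLC2A2 from 24.7 to 41.3, so the order of the 2 by level turned over.

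Hexokinases, which phosphorylate glucose, also went apart. HK2 had 420 reads at 5 mM and 16 at 25 mM, which kept it out of the members, at a ratio of 0.0719 (0.0407 to 0.118). HK1 had 434 and 520 reads, a ratio of 2.26 (1.99 to 2.57). At the next step, the liver phosphofructokinase PFKL had 2281 and 2681 reads (2.22, 2.10 to 2.35) and the platelet form PFKP 332 and 80 (0.455, 0.352 to 0.582). Of the PFKFB enzymes that make and break fructose 2,6-bisphosphate, the activator of phosphofructokinase, PFKFB3 had 15512 and 2674 reads (0.325, 0.312 to 0.339) and PFKFB4 had 178 and 360 (3.82, 3.18 to 4.59). PFKFB3 remained the more abundant by length, at 27.3 FPKM against 3.67 FPKM at 25 mM.

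Of 15 glycolytic members, 4 were higher (ALDOC, HK1, PFKL and PGAM1) and PFKP was lower. These were 26.7% and 6.67% of the list, against 19.4% and 10.9% of all members. The others had ratios from 0.815 to 1.48, the highest of them LDHA. GAPDH had 46048 and 26279 reads (1.08, 1.06 to 1.09), GPI a ratio of 1.07 and ENO1, the major enolase, one of 0.815 (0.802 to 0.828). ALDOA had only 147 and 98 reads (1.26, 0.964 to 1.64), and its span overlaps another gene of the table.

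The pyruvate dehydrogenase (PDH) list had 4 higher and no lower member of 13. PDH joins glycolysis to the TCA cycle, and PDH kinases switch it off. PDK4 had 1492 and 2781 reads (3.52, 3.30 to 3.75) and PDK2 had 127 and 204 (3.03, 2.42 to 3.81). PDK1 had 998 and 459 reads, a ratio of 0.868 (0.775 to 0.970), and PDK3 had 3820 and 2934 (1.45, 1.38 to 1.52). The beta subunit of the E1 enzyme, PDHB, had a ratio of 2.42 and the phosphatase PDP1, which switches PDH on, one of 1.66. The other PDH phosphatase, PDP2, had a ratio of 0.744.

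Of 6 gluconeogenesis members, 3 were higher and none lower. PCK1, the cytosolic enzyme that makes phosphoenolpyruvate, had 145 and 380 reads (4.94, 4.07 to 6.03). SLC37A4, which carries glucose 6-phosphate into the endoplasmic reticulum, had 409 and 961 (4.43, 3.94 to 4.99), and the phosphatase G6PC had 47 and 85 (3.41, 2.36 to 4.98). The mitochondrial isozyme PCK2 had a ratio of 0.988 (0.945 to 1.03), and FBP1 had no read in either library.

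**Figure D2:**
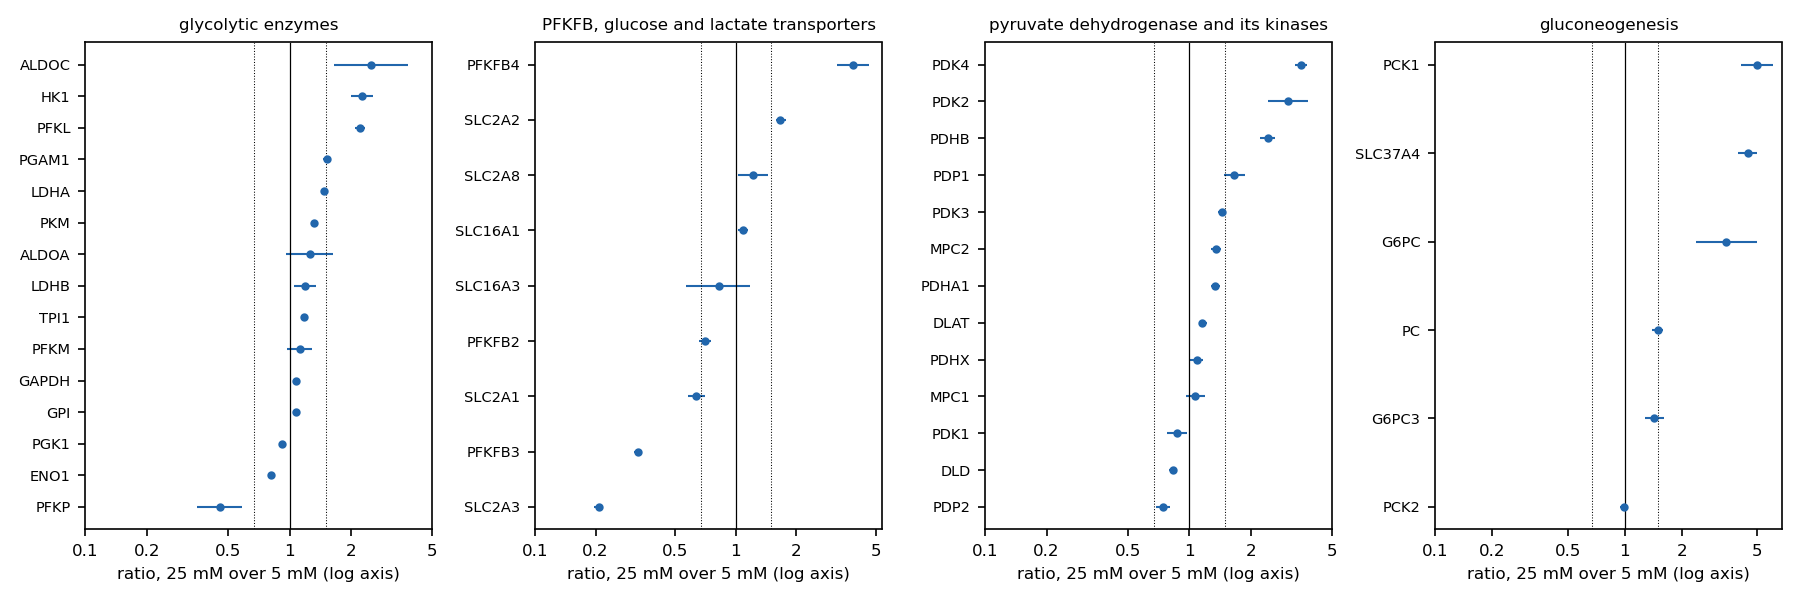
Ratio of 25 over 5 mM glucose in PLC cells (horizontal log axis; 95% counting intervals as bars, dotted lines at 1.5 and 0.67) for the members of 4 lists of glucose metabolism, 1 gene per row on the vertical axis. SLC2A3 (0.207) and PFKFB3 (0.325) lie at the low end, and PCK1 (4.94), SLC37A4 (4.43), PFKFB4 (3.82) and PDK4 (3.52) at the high end.

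The side branches differed. Glycogen enzymes (8 members, log2 median 0.00) had no member higher, and PPP1R3B, which targets the phosphatase to glycogen, was lower at 0.615. The liver glycogen phosphorylase PYGL fell outside the members with 163 and 11 reads (0.127, 0.0623 to 0.234), as did liver glycogen synthase GYS2 with 3 and 25 (15.7, 4.80 to 81.4). In the hexosamine pathway, OGT, which attaches O-GlcNAc to proteins, had 24502 and 4886 reads (0.376, 0.365 to 0.388), and GFPT1, the entry enzyme, 15217 and 4785 (0.593, 0.574 to 0.613). OGA, which removes the sugar, had a ratio of 0.796. The pentose phosphate list (log2 median -0.11) held a single gene past the fold, RPIA, with 628 and 168 reads and a ratio of 0.505 (0.423 to 0.599). All 4 polyol and fructose members were past the fold, with KHK, the fructokinase, at 2.01, SORD at 1.62 and TKFC at 1.59, and AKR1B1 just under the lower limit, but with TMM only 2 of the 4 were.

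Of 15 carbohydrate-response members, 10 were higher (66.7%, against 19.4% of all members) and 3 lower (20%, against 10.9%), with a median log2 ratio of 0.67. With TMM 7 were higher (46.7%, against 15.3%) and the median of 0.55 no longer passed the limit. PKLR, the liver pyruvate kinase and a classical ChREBP target, had 308 reads at 5 mM and 512 at 25 mM (3.14, 2.72 to 3.62), and MLXIPL itself had 38 and 44 (2.18, 1.38 to 3.47). ARRDC4 had 60 and 64 reads (2.01, 1.39 to 2.91). TXNIP, the arrestin-like protein that restrains glucose uptake, had 26 reads at 5 mM and 18 at 25 mM, below the minimum, with a ratio of 1.31 (0.675 to 2.48), so no change was detectable at this depth. The lower members were GCKR (0.529), ME1 (0.537) and KLF10 (0.468).

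Of 12 fatty acid synthesis members, 4 were higher (33.3%, against 19.4% of all members) and 1 was lower, and the median log2 ratio of 0.37 did not reach the limit. ACLY, which makes cytosolic acetyl-CoA from citrate, had 6324 and 5216 reads (1.56, 1.5 to 1.61), and ACSS2, which makes it from acetate, had 805 and 830 (1.95, 1.76 to 2.15). ELOVL6 had a ratio of 1.97 and the desaturase SCD one of 1.54. FASN had 1.42 (1.38 to 1.46). MID1IP1, which promotes the assembly of acetyl-CoA carboxylase, had 4686 and 1226 reads (0.494, 0.463 to 0.526). With TMM 2 of the 12 were higher (16.7%, against 15.3% of all members).

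Triglyceride and lipid droplet genes split. DGAT2, which adds the last acyl chain, had 488 and 93 reads (0.360, 0.285 to 0.450), and GPAM, the entry enzyme, had 1420 and 391 (0.519, 0.463 to 0.581). PLIN2, the coat protein of lipid droplets, had 4318 and 703 (0.307, 0.283 to 0.333). CIDEC and LPIN2 were higher, at 3.30 and 1.68. In fatty acid oxidation 5 of 15 were higher (33.3%, against 19.4% of all members) and none lower. The highest was CPT2, the inner carnitine acyltransferase, with 251 and 435 reads (3.27, 2.79 to 3.83). CPT1A had a ratio of 0.875 (0.845 to 0.907).

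Of 23 members of cholesterol synthesis and uptake, 16 were higher (69.6%, against 19.4% of all members) and none was lower, with a median log2 ratio of 0.73 and ratios from 1.05 to 4.98. With TMM 12 were higher (52.2%, against 15.3%). All 23 intervals lay above 1 with library totals as the scale. FDPS, which makes farnesyl diphosphate, had 287 reads at 5 mM and 757 at 25 mM (4.98, 4.34 to 5.72). The sterol reductase TM7SF2 had 658 and 1119 (3.21, 2.91 to 3.54) and the isomerase EBP 525 and 869 (3.12, 2.80 to 3.49). HMGCS1, which makes HMG-CoA, had a ratio of 1.32. SREBF2, which encodes the transcription factor of the pathway, was at the bottom with 1.05 (1.01 to 1.09), and with TMM its ratio was 0.967. In Huh7 the same 23 genes had a median of -0.31 log2 and none had an interval above 1.

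**Figure D3:**
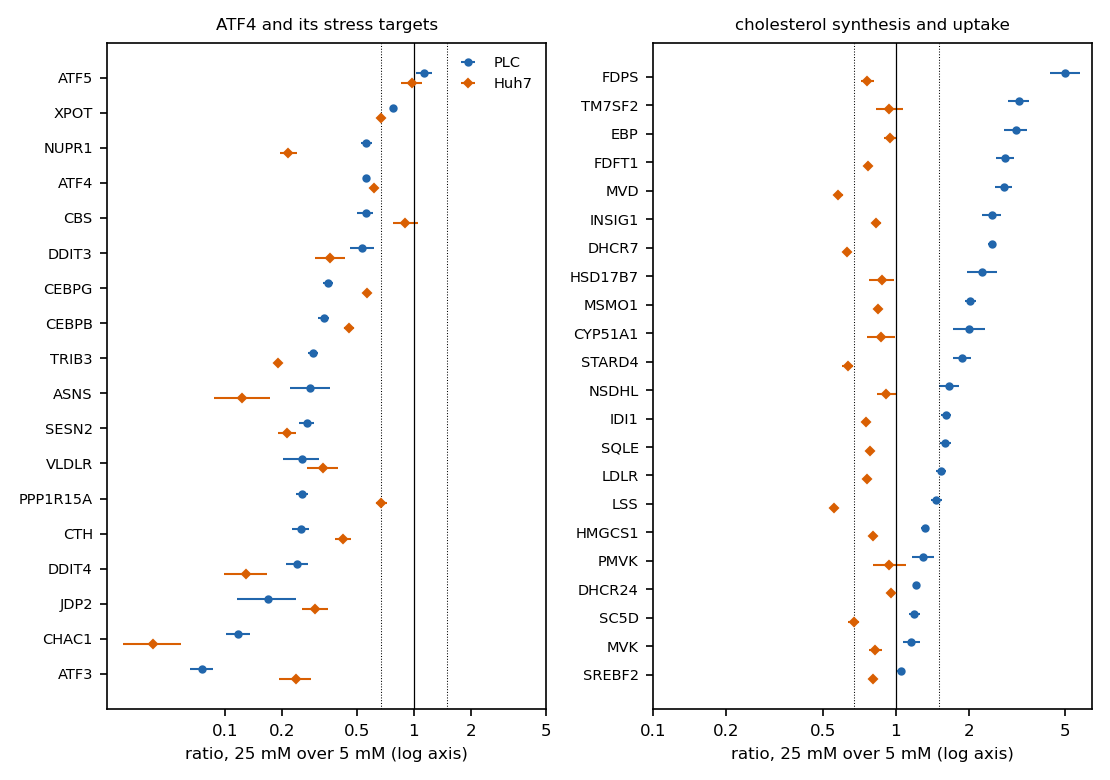
Ratio of 25 over 5 mM glucose (horizontal log axis; bars are 95% counting intervals, dotted lines at 1.5 and 0.67) in PLC (blue circles) and Huh7 cells (orange diamonds) for 18 ATF4 genes (left) and 22 of the 23 cholesterol genes (right), 1 gene per row. Of the ATF4 genes, 16 lie under 0.67 in PLC and their Huh7 points lie on the same side of 1. The cholesterol genes lie above 1 in PLC (SREBF2 below it under TMM). In Huh7, 20 of all 23 cholesterol genes have intervals below 1 and none has one above 1.

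Several secreted liver proteins were higher at 25 mM. AFP, the fetal albumin homologue used as an HCC marker, had 29691 reads at 5 mM and 51958 at 25 mM, a ratio of 3.30 (3.25 to 3.35). The protease inhibitor A2M had 51705 and 70530 (2.57, 2.54 to 2.60), SERPINA1 had 3282 and 4079 (2.34, 2.24 to 2.46) and the copper carrier CP had 444 and 1196 (5.08, 4.55 to 5.68). ALB, at 1.38 (1.32 to 1.44), and the iron carrier TF, at 1.21, did not pass the fold. In all, 4 of 8 plasma protein members were higher and none lower, and 8 further genes of that list were below the read minimum.

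Of 9 apolipoprotein genes, 5 were higher (55.6%, against 19.4% of all members) and 1 lower (11.1%, against 10.9%). APOA2 had 88 and 260 reads (5.57, 4.36 to 7.18), APOA1, the main protein of HDL, had 26 and 52 (3.77, 2.31 to 6.30) and APOM, the sphingosine 1-phosphate carrier, had 728 and 995 (2.58, 2.34 to 2.84). APOB, the most abundant of them in reads, had a ratio of 1.05 (1.04 to 1.06). APOC3, an inhibitor of lipoprotein lipase, had 132 and 36 (0.515, 0.346 to 0.749). Among coagulation and complement genes 6 of 14 were higher (42.9%, against 19.4% of all members) and 2 lower (14.3%, against 10.9%). With TMM 3 were higher (21.4%, against 15.3%). Fibrinogen chains FGB and FGA had ratios of 1.97 and 1.52 and FGG 1.38, while complement C3 had 41993 and 12983 reads (0.583, 0.572 to 0.595).

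Liver transcription factors were near level. HNF4A, which maintains hepatocyte identity, had 7785 and 4535 reads (1.10, 1.06 to 1.14). The pioneer factors FOXA1 and FOXA3 were the only higher members of the 12 (16.7%, against 19.4% of all members), with 1.86 and 1.62. None was lower. With TMM 1 was higher and 1 lower (8.33% each, against 15.3% and 15.2%). Of the xenobiotic genes, CYP1A1, the aryl hydrocarbon receptor target, had 7958 and 1176 reads (0.279, 0.262 to 0.296), SULT1A1 had 156 and 296 (3.58, 2.94 to 4.37) and GSTP1, a glutathione transferase that is low in normal hepatocytes, had 48912 and 16424 (0.634, 0.622 to 0.645).

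Chemokine and NF-kB feedback genes were higher in 8 of 12 cases and lower in 1. CXCL5 had 2322 reads at 5 mM and 3789 at 25 mM (3.08, 2.92 to 3.24), CCL20, the ligand of CCR6, had 1409 and 1892 (2.53, 2.36 to 2.72) and CXCL1 had 355 and 395 (2.10, 1.81 to 2.43). CXCL8 went the other way, with 12089 and 3634 reads (0.567, 0.546 to 0.589), and CXCL2 had a ratio of 0.702. Among interferon-stimulated genes 5 of 11 members were higher, led by OAS3 (2.34) and IFI6 (2.29), and 9 of the 20 listed were below the minimum. Genes of MHC class I and antigen processing showed 1 higher (8.33%, against 19.4% of all members) and 3 lower (25%, against 10.9%) of 12. With TMM 5 were lower (41.7%, against 15.2%). HLA-B had a ratio of 0.602 (0.404 to 0.878). HLA loci are paralogous and reads may be divided among them.

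ATF4 and its stress targets gave the lowest median of all lists, -1.80 log2 over 18 members, with 16 lower and none higher, against 10.9% of all members lower. ATF4 itself, whose protein is made when eIF2 alpha is phosphorylated, had 18796 reads at 5 mM and 5574 at 25 mM (0.559, 0.543 to 0.576). Asparagine synthetase ASNS had 540 and 81 (0.283, 0.221 to 0.358), the pseudokinase TRIB3 had 8042 and 1246 (0.292, 0.275 to 0.310) and CHAC1 had a ratio of 0.118 (0.102 to 0.136). JDP2, a bZIP repressor close to ATF3, had 391 and 35 (0.169, 0.116 to 0.239). XPOT, the tRNA export factor, at 0.774 and ATF5 at 1.13 (1.03 to 1.25) were the members within the limits. DDIT3 (CHOP), the death-related member, had 819 and 231 reads (0.532, 0.458 to 0.617).

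Secreted factors of the stress response were lower in 5 of 7 cases, at a median of -1.16 log2. STC2 had 18113 and 1763 reads (0.184, 0.175 to 0.193), and INHBE is given above. GDF15, the ligand of GFRAL in the brainstem, was the exception among the abundant ones, with 23986 and 10884 reads (0.856, 0.837 to 0.876). The lipoprotein lipase inhibitor ANGPTL4 was higher, with 94 and 90 reads (1.81, 1.34 to 2.44). FGF21 had 4 and 0 reads and FGF19 none.

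Amino acid uptake and synthesis genes were lower over most of their members. Of 11 transporters, 9 were lower and none higher, with a median of -1.10 log2. SLC3A2, the heavy chain shared by several transporters, had 22192 and 3292 reads (0.280, 0.270 to 0.290), its partner SLC7A5 (LAT1) had 37352 and 6627 (0.335, 0.326 to 0.344) and the cystine carrier SLC7A11 had 9098 and 1712 (0.355, 0.337 to 0.374). SLC38A2 at 0.934 and SLC36A4 at 1.19 were within the limits. In serine, one-carbon and proline synthesis 6 of 11 were lower, with PHGDH, the entry enzyme of serine synthesis, at 9824 and 1761 reads (0.338, 0.321 to 0.356), PSAT1 at 0.468 and the mitochondrial folate enzymes MTHFD2 at 0.350 and ALDH1L2 at 0.303. The cytosolic SHMT1 was higher, with 412 and 538 reads (2.46, 2.16 to 2.81), and the mitochondrial SHMT2 had 1.04 (0.995 to 1.09).

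Of 20 cytosolic aminoacyl-tRNA synthetases, 10 were lower and 1 was higher, at a median of -0.65 log2. GARS1, for glycine, had 47229 and 9896 reads (0.395, 0.387 to 0.404) and MARS1, for methionine, had 23102 and 5650 (0.461, 0.448 to 0.475). QARS1, for glutamine, was higher at 1.66 (1.59 to 1.74) and HARS1 had a ratio of 1.42.

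The C/EBP-ATF composite motif TGATGNAA was counted in the same promoters. It stood in 3.67% of all promoters and in 1.69% of those of the members. It was found in 6 of 16 promoters of aminoacyl-tRNA synthetases (37.5%), 3 of 10 of amino acid transporters (30%), 3 of 17 of ATF4 targets (17.6%) and 1 of 7 of serine and one-carbon genes (14.3%). The 5 windows printed are those that lie wholly upstream of the RefSeq gene start. They show how the letters vary among genes whose ratios ran from 0.0754 to 0.759. The CHAC1 window lies within the span of the counted gene, which starts farther upstream. Capitals mark the motif or its reverse complement, read 5′ to 3′ on the strand of the gene. The windows are chr1:212565205-212565234 (plus strand) for ATF3, chr15:40953251-40953280 (plus) for CHAC1, chr7:97872458-97872487 (minus) for ASNS, chr6:150866346-150866375 (plus) for MTHFD1L and chr16:70289675-70289704 (minus) for AARS1.
ATF3: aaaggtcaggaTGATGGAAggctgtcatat
CHAC1: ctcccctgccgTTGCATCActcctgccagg
ASNS: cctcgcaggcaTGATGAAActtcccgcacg
MTHFD1L: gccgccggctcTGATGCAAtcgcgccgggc
AARS1: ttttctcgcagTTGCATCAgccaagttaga
For ASNS, MTHFD1L and AARS1 the ratios were 0.283, 0.440 and 0.759. The other motifs counted were the sterol regulatory element TCACNCCAC and the E-box of the carbohydrate response, CACGTG. TCACNCCAC was in 1 of 18 cholesterol promoters (5.56%, that of SREBF2), against 1.04% of those of the members. CACGTG was in 2 of 11 carbohydrate-response promoters (18.2%), against 10.2% of those of the members. Serine and one-carbon genes had CACGTG in 3 of 7 promoters (42.9%).

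Genes of folding in the endoplasmic reticulum did not follow the ATF4 list. Of 22 members, 3 were higher (13.6%, against 19.4% of all members) and 2 lower (9.09%, against 10.9%). The median was -0.06 log2. With TMM 2 were higher (9.09%, against 15.3%) and 5 lower (22.7%, against 15.2%). The chaperone HSPA5 (BiP) had 34438 and 19296 reads (1.06, 1.04 to 1.08), HSP90B1 had 0.872 and calreticulin (CALR) 1.13. CRELD2 was the highest with 449 and 691 reads (2.90, 2.57 to 3.28). The lower members were HERPUD1, with 9226 and 2332 reads (0.477, 0.455 to 0.499), and the sensor kinase ERN1, at 0.587 (0.536 to 0.643).

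NRF2 targets, which defend against oxidants and electrophiles, were lower in 10 of 16 cases and higher in none, at a median of -0.91 log2. TXNRD1, the cytosolic thioredoxin reductase, had 39841 reads at 5 mM and 4944 at 25 mM (0.234, 0.227 to 0.241). HMOX1, which degrades heme, had 14729 and 1898 (0.243, 0.232 to 0.255) and AKR1C2, a ketosteroid reductase, 3515 and 491 (0.264, 0.239 to 0.290). NQO1, often taken as a readout of the pathway, had 8730 and 3798 reads (0.821, 0.790 to 0.853). NFE2L2, which encodes NRF2, and its inhibitor KEAP1 had 0.908 and 1.05. SLC7A11 belongs to this list and to the amino acid transporters, and AKR1C copies are close paralogs.

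YAP and TEAD genes, read as reporters of cell contact and tension, were lower in 6 of 13 cases and higher in none, at a median of -0.53 log2. ANKRD1 (0.0958), CCN1 (0.163) and AJUBA (0.237, from 12578 to 1582 reads) were the lowest, whereas CCN2 had 972 and 277 reads (0.538, 0.469 to 0.615). YAP1 had a ratio of 0.908. The immediate early genes were mixed. Of 15, 6 were lower (40%, against 10.9% of all members) and 3 higher (20%, near the 19.4% of all members). FOSL1, an AP-1 subunit, had 576 and 61 reads (0.20, 0.151 to 0.260), JUN had 4498 and 661 (0.277, 0.255 to 0.301) and MYC had 3909 and 1128 (0.544, 0.509 to 0.582). DUSP6, the feedback phosphatase of ERK, had 702 and 1182 reads (3.18, 2.89 to 3.49), and FOS had 44 and 58 (2.49, 1.65 to 3.77).

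Several genes of growth factor signalling were lower. The insulin and IGF list had 3 of 6 members lower (50%, against 10.9% of all members). IGFBP1, an insulin-repressed liver protein, had 568 and 79 reads (0.262, 0.205 to 0.333). IGF1R had a ratio of 0.468 (0.444 to 0.493) and INSR one of 1.02 (0.991 to 1.06). Of 10 receptor tyrosine kinases and ligands, 2 were lower (20%, against 10.9% of all members), 8 lay between and none was higher. EREG, an EGFR ligand, had 21737 and 3498 reads (0.304, 0.293 to 0.315), and MET had 0.661. Of 18 ribosome biogenesis genes, 6 were lower and none higher, with the box C/D protein NOP58 at 6858 and 1497 reads (0.412, 0.389 to 0.436) and the RNA polymerase I initiation factor RRN3 at 0.450, while fibrillarin (FBL) had 0.976. With TMM 9 were lower.

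Of the 203 ZNF genes on chromosome 19 that were members, 75 were lower and 19 higher, with a median of -0.40 log2. The chromosome as a whole had a median of 0.09 log2. ZNF550 had 904 and 156 reads (0.326, 0.273 to 0.386), ZNF568 had 855 and 155 (0.342, 0.286 to 0.406) and ZNF274, which recruits the SETDB1 methyltransferase, had 2268 and 413 (0.344, 0.309 to 0.382). ZNF443 was the highest, with 229 and 335 reads (2.76, 2.33 to 3.28). These genes are paralogs with similar finger arrays, so reads may be divided among them. In Huh7 189 of them were measured, with a median of 0.02 log2.

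Of 76 nuclear-encoded respiratory chain and ATP synthase subunits 10 were higher (13.2%, below the 19.4% of all members) and none lower, at a median of 0.18 log2, with NDUFC1 highest at 1.96. With TMM 3 were higher (3.95%, against 15.3%). Autophagy and lysosome genes had 3 of 20 lower (15%, against 10.9% of all members) and none higher. With TMM 7 were lower (35%, against 15.2%). The cargo receptor SQSTM1 had 50564 and 17041 reads (0.636, 0.625 to 0.647). Among 13 clock genes 4 were lower (30.8%, against 10.9%) and 2 higher (15.4%, against 19.4%). BHLHE41 had a ratio of 0.302, NR1D2 one of 0.425 and DBP one of 1.70. Hypoxia targets had 2 higher and 2 lower of 12 (16.7% each, against 19.4% and 10.9% of all members). ADM had a ratio of 0.448 and VEGFA, also counted among the secreted factors, one of 0.446. Of 14 heat shock genes only HSPA1A (0.547) and HSPA1B (0.397), which are near-identical copies, passed the lower limit and none passed the upper.

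Some genes passed the read minimum in 1 library alone, and the deeper 5 mM library had more of them. HK2 had the most reads of the 763 at 5 mM, followed by TMEM40 (313 reads at 5 mM and 13 at 25 mM), MTUS2 (310 and 15), CLMN (307 and 12) and TRIM36 (224 and 16). Of the 148 at 25 mM, HLA-DMB, a chaperone of MHC class II loading, had 10 reads at 5 mM and 158 at 25 mM, a ratio of 29.8 (15.8 to 63.4). RFX6, a transcription factor of the endocrine pancreas, had 12 and 113 (17.8, 9.78 to 35.4) and the cytokine LTB had 11 and 74 (12.7, 6.70 to 26.5). RIBC2 had no read at 5 mM and 70 at 25 mM, with a lower interval bound of 34.9 for its ratio. At the edge of the minimum, 55 members had exactly 20 reads in their lower library, with a median of 0.11 log2, and 42 genes left out with 19 reads had a median of 0.52.

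Fewer genes passed the fold in Huh7. Of the 11092 members with at least 20 reads in both Huh7 libraries, 598 (5.39%) had a ratio over 1.5 there and 558 (5.03%) a ratio under 0.67, beside 2034 and 1179 in PLC. Of the PLC genes that were higher and measured in Huh7, 332 of 2034 were higher there and 75 lower. Of those that were lower, 222 of 1179 were lower there and 25 higher. With 1 library per condition, the lines' responses could not be tested against each other. Histone, mitosis and replication medians were 0.77, 0.60 and 0.52 log2 in Huh7, on the same side as in PLC. The ATF4 list was at -1.54 and the amino acid transporters at -1.03, beside -1.80 and -1.10 in PLC. Some values lay farther from 0 in Huh7. The 7 stress-induced secreted factors had a median of -2.02 log2 there and -1.16 in PLC, and TXNIP, below the minimum in both lines, had 8 and 439 reads in Huh7 (39, 19.6 to 90.9).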

How the data were processed

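RNA from PLC and Huh7 cells in 5 mM or 25 mM glucose was extracted with TRIzol, depleted of rRNA and made into directional libraries by the authors. The deposited values are counts of reads per gene, not normalized. The submitters' processing notes name HISAT2, featureCounts and hg38. Versions, the annotation release and the strand setting of the counting are not given in the sources used here, so reads of antisense or overlapping genes may not be told apart. Groups came from the sample labels.

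Of 59657 lines, 59652 were used, and 5 lines of a broken ANK2 entry were left out. Gene classes came from GENCODE release 44, matched by symbol for 38132 genes and by position for 21161 (reciprocal overlap of at least 0.5). The 37 mitochondrial genes had 0 reads. The depth was 30279716 and 16049686 reads in PLC at 5 and 25 mM, and 3 reads stood for 0.0991 and 0.187 CPM. FPKM was computed from counts, gene length and library total. Ratios were unscaled by TMM in the main values. TMM factors came from edgeR (filterByExpr, 23217 genes) and size factors from DESeq2 as alternatives. Interval code was tested on simulated data. Alternatives were the scaling, the read minimum, FPKM with 0.1 or 1 added, the fold, overlapping genes, and trends with length or GC content.

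The members, the 54 gene lists and the 2 marker lists were chosen with earlier results of these data known. Named genes were the 15 with the highest lower bound and the 15 with the lowest upper bound, the first 4 of each list with its 3 highest and 3 lowest ratios, and the 5 genes with most reads of those past the minimum in 1 library. MCM6, PCNA, E2F1, PGAM1, GAPDH, LDHA, ALDOA, PDP1, PYGL, SCD, DDIT3, MTHFD1L and MYC were chosen after their values were seen. Some genes of the lists are not reported here by name.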

Additional observations from a re-analysis of the deposited data

Results flagged for a closer look

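Some lists had opposite directions in the lines, and with 1 library per condition the difference was not tested in any of them. The carbohydrate-response genes had a median log2 ratio of 0.63 in PLC over the 12 members also measured in Huh7, where the median was -0.30. With TMM the PLC median over all 15 members was 0.55, within the fold. TXNIP, below the read minimum in both lines, was not among the 12, and its Huh7 reads went up, as given above. Of the 12, 8 had an interval above 1 in PLC and 9 had one below 1 in Huh7. The cholesterol list stood at 0.73 in PLC and -0.31 in Huh7, with 23 of 23 intervals above 1 in PLC and 20 below 1 in Huh7. Chemokine and NF-kB feedback genes, 10 of them measured in both lines, stood at 0.74 and -0.65, with 8 intervals above 1 in PLC and 7 below 1 in Huh7.

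RASSF5, a Ras-association domain protein, was the only gene among the 30 leading ones past the fold in opposite directions. Its log2 ratio was -2.63 in PLC, from 1036 to 89 reads, and 0.64 in Huh7, from 346 to 760 reads.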

How the results depend on the processing

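No paired analysis was possible because each condition had 1 PLC library and the result came from no test. For the same reason no replicate was left out, and the spread between cultures was not measured.

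None of the 16 lists with a median past the fold and none of the 30 leading genes changed direction under any alternative that gave a value, but 6 of the 16 lists came within the fold under at least 1. Against main log2 medians of 0.67 and 0.68, the carbohydrate-response and polyol lists had 0.55 and 0.56 with TMM, 0.53 and 0.55 with DESeq2 size factors, and 0.49 and 0.40 with 1 added to both FPKM values. Gluconeogenesis went from 1.17 to 0.57 with at least 100 reads, and plasma proteins from 0.85 to 0.37 with at least 1 read or with FPKM over 0.5. Over members that overlap no other gene, chemokines went from 0.74 to 0.48 and aminoacyl-tRNA synthetases from -0.65 to -0.51. The causes were not tested. With at least 100 reads in both libraries 9 of the 30 had no value, and with overlapping genes left out 15 of the 54 lists had too few members and 11 of the 30 genes had no value. Under TMM factors the median log2 ratio of all members was -0.04 and under DESeq2 size factors -0.05, against 0.08. The lists with a median under 0.67 then numbered 10 and 11, against 6. With 1 added to both FPKM values 1441 members were over 1.5, and with only 1 read required in both libraries 2182 genes were under 0.67. Among the 3154 members that overlap no other gene 670 were over 1.5 and 399 under 0.67, from fewer genes tested. At ratios over 2 or under 0.5 the counts were 1017 and 445, and 4 lists had a median over 2 and 3 under 0.5. Removing the trend with length or with GC content, and taking protein-coding reads as the total, left the counts of genes and lists within 1.5 times the main ones. Depth limits genes near 20 reads at 25 mM most, where intervals span several fold.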
